A study of Mus musculus with 46 samples.

Results

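The genes that set the balance of phosphate and pyrophosphate where mineral forms were followed through single cells of the mouse cochlea. They were chosen by symbol: all 9 listed members had a row of their own among the 29871 genes of the table, and all 46 cells were used. The promoters of mineral are Alpl, Phospho1, Smpd3 and Sgms2, the inhibitors are Enpp1, Ank and Mgp, and Slc20a1 and Slc20a2 carry phosphate into cells. Cells are classed by Ibsp, Otos and C1qb, and no member is part of that rule.

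The cells came from cochleae of C57BL/6 mice at postnatal day 10, heterozygous for a Cre recombinase that tamoxifen activates (Dio2creERt2) and carrying the Ai6 reporter, which makes a cell fluoresce after Cre has acted in it or in an ancestor. The study asked which cochlear cells express Dio2, the gene of the deiodinase that activates thyroid hormone. Fluorescent cells were picked one by one after papain treatment, and each library holds 1 cell. All cells carry both alleles, so there was no group without the driver, and 1 labelled group with no animal named leaves no replicate for any difference between cells.

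Mineral is a calcium phosphate that grows where phosphate is set free and pyrophosphate, which coats and stops crystals, is removed. Osteoblasts, the cells that form bone, shed small matrix vesicles in which the first crystals appear. Inside these vesicles an enzyme releases phosphate from lipid head groups, and on their outer face alkaline phosphatase destroys pyrophosphate. Around the cochlea this takes place in the bony otic capsule, while the connective tissue of the lateral wall stays soft.

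Values are CPM, reads of a gene per 1000000 reads of that cell. Cells were put in classes by 1 marker each. Ibsp, the gene of bone sialoprotein, was at 1000 CPM or more in 12 cells (Ibsp-high). Otos, the gene of otospiralin in cochlear fibrocytes, was at 1000 CPM or more in 9 cells (Otos-high). C1qb, a complement gene of macrophages, was at 500 CPM or more in 4 cells (C1qb-high), and 21 cells passed none of the limits (remaining cells). No cell passed more than 1 limit. The limits fell in wide gaps: Ibsp was at 7618 CPM in the lowest Ibsp-high cell and at 107 CPM in the highest other cell, Otos at 1213 and 112 CPM in the same way, and C1qb at 3048 and 148 CPM.

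The classes were checked against marker lists. A gene counts here as above background in a cell at 10 CPM or more and at 2% or more of its mean over the 46 cells. Each list is counted without the gene that set the class. Of 8 osteoblast markers other than Ibsp, Ibsp-high cells had 5 to 8 each, Otos-high cells 0 or 1, C1qb-high cells 0 and remaining cells 0 to 5. Of 7 fibrocyte markers other than Otos, Ibsp-high cells had 2 to 5, Otos-high cells 6 or 7, C1qb-high cells 0 or 1 and remaining cells 0 to 7. Of 6 macrophage markers other than C1qb, C1qb-high cells had 5 or 6 and no other cell had more than 2. The remaining cells are therefore mixed: 18 of 21 had at least 3 of these fibrocyte markers and 5 of 21 at least 3 of these osteoblast markers. At least 3 of these fibrocyte markers were also present in 10 of 12 Ibsp-high, 9 of 9 Otos-high and 0 of 4 C1qb-high cells. This count thus does not set the remaining cells apart from Ibsp-high cells. At least 3 of 5 chondrocyte markers were present in 4 of 12 Ibsp-high cells, 9 of 9 Otos-high cells, 0 of 4 C1qb-high cells and 14 of 21 remaining cells, and at least 3 of 4 general fibroblast markers in 6, 8, 0 and 13 of them. At least 1 epithelial marker (of 2) was above background in 0 of 12 Ibsp-high cells, 6 of 9 Otos-high cells, 0 of 4 C1qb-high cells and 6 of 21 remaining cells, with Epcam at 0 in all. At least 1 melanocyte marker (of 3) was so in 0, 4, 1 and 2 cells of these classes, with sums up to 2096 CPM in Otos-high cells. At least 1 glial marker (of 3) was so in 2, 2, 2 and 5 cells, 1 pericyte marker (of 2) in 1, 2, 0 and 1 cells, and 1 endothelial marker (of 2) in 0, 0, 1 and 2 cells. The part of other cell types in the results below was not tested. Cell numbers follow the classes, with Ibsp-high cells numbered 1 to 12 and C1qb-high cells 43 to 46, and the labels do not say what the numbers record. Reads in listed genes were 2522853 to 5438602 in Ibsp-high cells, 3522422 to 7530795 in Otos-high cells, 3910005 to 4788550 in C1qb-high cells and 2921064 to 10350249 in remaining cells.

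Of the promoters of mineral, Alpl, Smpd3 and Sgms2 were high in all or most Ibsp-high cells and low or patchy elsewhere. Phospho1 was at a modest level in Ibsp-high cells, with a median of 42.4 CPM, beside 0 in cells outside the class. The inhibitors were split. Ank was above background in 11 of 12 Ibsp-high cells, but Enpp1 was so in 1 of 12 and Mgp in 4 of 12. By a rule of size, a gene was counted as higher or lower where the class means of log2(CPM + 1) lay 2 or more apart and where 75% of cells in the class with more of it reached 1 CPM. Against the remaining cells, 5 of the 9 members were higher in Ibsp-high cells and 0 were lower, beside 1.28% of all genes counted as higher and 0.639% as lower. Among the 15042 genes that reached 10 CPM in any cell, as all 9 members did, these shares were 2.53% and 1.27%. The 5 were Alpl, Phospho1, Smpd3, Sgms2 and Ank. The median difference over the 9 members was 2.62 log2 units, beside 0 over those 15042 genes.

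**Figure D1:**
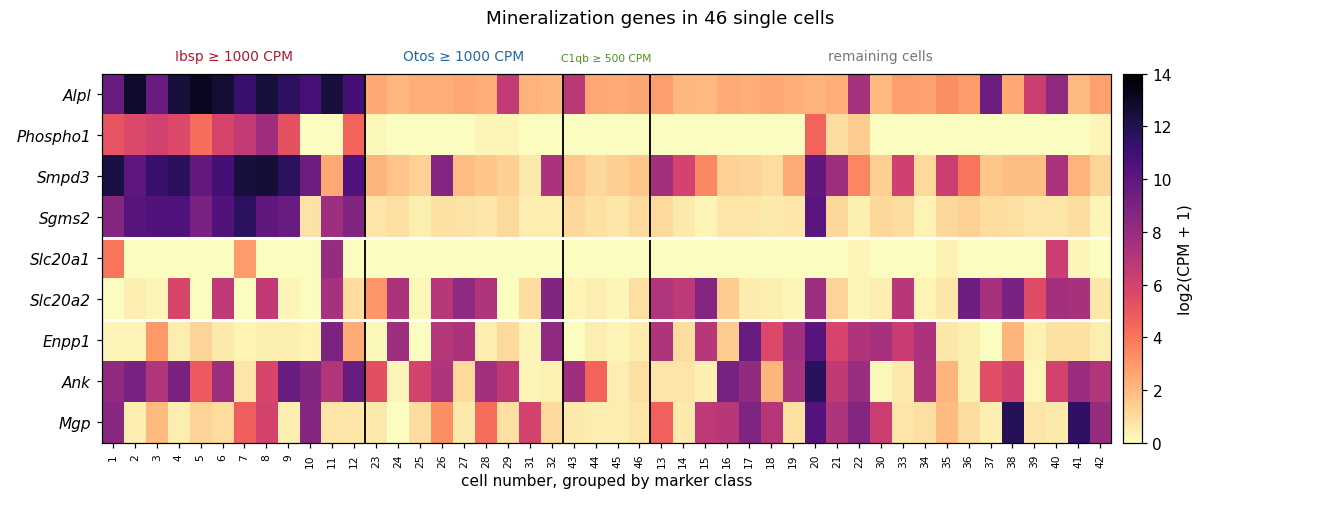
Level of each of the 9 members in each of the 46 cells, as log2(CPM + 1) by colour, with members in rows by role and cells in columns by class. Alpl fills all 12 Ibsp-high columns, with Smpd3, Sgms2 and Ank in 11 of 12 and Phospho1 in 10 of 12, while Enpp1 and Mgp are filled mostly among the 21 remaining cells.

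Sequence upstream of the start sites is shown for enzymes that were higher in Ibsp-high cells and for the inhibitor Enpp1, which few of those cells had above background. Of the 9 members, 6 (all but Smpd3, Mgp and Slc20a2) had an entry in the RefSeq promoter table (GRCm38.p6), with 13 start sites in all. The 250 bases before each start were searched on both strands for TGTGGT or TGCGGT, core letters of RUNX sites, and for TAATTA, a core of homeodomain sites that reads the same on both strands. No matches overlapped. Capitals mark a match, and sequences run 5′ to 3′ on the strand of the gene: Alpl at chr4:137796385-137796634 (minus strand), Phospho1 at chr11:95824250-95824499 (plus strand), Sgms2 at chr3:131491444-131491693 (minus strand) and Enpp1 at chr10:24712160-24712409 (minus strand).
Alpl: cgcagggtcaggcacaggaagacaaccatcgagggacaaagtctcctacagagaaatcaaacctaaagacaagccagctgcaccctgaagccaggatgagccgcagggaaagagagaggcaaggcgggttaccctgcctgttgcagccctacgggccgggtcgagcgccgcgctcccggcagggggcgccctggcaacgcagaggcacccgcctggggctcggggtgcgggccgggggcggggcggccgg
Phospho1: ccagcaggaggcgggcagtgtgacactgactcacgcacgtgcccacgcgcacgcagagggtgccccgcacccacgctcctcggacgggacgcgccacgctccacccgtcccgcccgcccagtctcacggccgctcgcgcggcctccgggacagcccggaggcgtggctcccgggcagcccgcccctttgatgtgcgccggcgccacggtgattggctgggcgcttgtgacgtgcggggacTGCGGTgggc
Sgms2: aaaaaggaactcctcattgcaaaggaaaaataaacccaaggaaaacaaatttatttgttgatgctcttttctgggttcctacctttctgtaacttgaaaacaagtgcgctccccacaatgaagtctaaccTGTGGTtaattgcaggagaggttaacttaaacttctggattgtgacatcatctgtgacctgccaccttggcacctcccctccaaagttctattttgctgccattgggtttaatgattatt
Enpp1: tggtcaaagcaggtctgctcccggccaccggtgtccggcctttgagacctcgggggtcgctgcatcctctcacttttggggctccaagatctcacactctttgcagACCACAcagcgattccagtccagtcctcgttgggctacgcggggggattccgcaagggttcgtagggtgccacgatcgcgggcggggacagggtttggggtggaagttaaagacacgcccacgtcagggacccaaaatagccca

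A RUNX core stood 10 bases before the Phospho1 start, 120 bases before this Sgms2 start and 144 bases before the Enpp1 start, where it reads as ACCACA, the other strand of TGTGGT. No such letters stood in the Alpl window shown or in that of its other start. The other Sgms2 starts had none either, so the Sgms2 window shown is the only one of that gene with a match. Slc20a1 also had TGTGGT 77 bases before 1 of its starts, where all 250 bases searched lie within exons of GENCODE M21. RUNX letters were thus present at 4 of 13 starts, beside 18.6% of all 32851 promoters of the same length. By gene, where a match at any start counts, they were present for 4 of 6 members, beside 20.9% of 27025 genes. These shares are not like for like: the 6 members had 13 starts, 6 of them of Sgms2, while the 27025 genes had 32851. More starts per gene give more room for a match, so no enrichment is read from these shares. In these windows the homeodomain core stood at 0 of 13 starts, beside 4.84% of promoters. Genes with high and low values in Ibsp-high cells both held the RUNX letters, and a match describes letters only.

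Alpl (GRCm38 chr4:137741731-137796384, minus strand) encodes the tissue-nonspecific alkaline phosphatase, which splits pyrophosphate at the cell surface and so removes an inhibitor while yielding phosphate. It had 770.4, 4240.2 and 9149 CPM in Ibsp-high cells (lowest, median and highest), 3.25, 4.01 and 93.3 CPM in Otos-high cells, and 3.07, 4.91 and 716 CPM in remaining cells. The 4 C1qb-high cells had 112, 4.84, 4.65 and 4.97 CPM. Every Ibsp-high cell lay above every other cell, so the classes do not overlap for this gene. The gap was narrow, from 716 CPM in a remaining cell to 770.4 CPM in an Ibsp-high cell. The share of all genes without such overlap is not given here. The mean log2(CPM + 1) was 11.64 ± 1.21 in Ibsp-high cells and 3.52 ± 2.26 in remaining cells (SD over 12 and 21 cells), a difference of 8.11. Against Otos-high cells, with 2.78 ± 1.43 over 9 cells, the difference was 8.86.

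Alpl was above background in 12 of 12 Ibsp-high cells (exact Clopper-Pearson 95% interval 73.5% to 100%), 1 of 9 Otos-high cells, 1 of 4 C1qb-high cells and 4 of 21 remaining cells (5.45% to 41.9%). Such intervals cover counting error only. The 4 remaining cells were cell 37 at 716 CPM, cell 40 at 311 CPM, cell 22 at 181 CPM and cell 39 at 76.9 CPM. The Otos-high cell was cell 29 at 93.3 CPM and the C1qb-high cell was cell 43 at 112 CPM. The other 28 cells outside the Ibsp-high class had 3.07 to 8.81 CPM, so no cell was at 0. This even floor was 0.389% of the mean over all cells at its median, and its source was not tested. It lies far below the lowest Ibsp-high cell, but it makes a count of cells with any read uninformative.

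Phospho1 (chr11:95824500-95832140, plus strand) encodes a phosphatase inside matrix vesicles that frees phosphate from phosphocholine and phosphoethanolamine. It had 0, 42.4 and 216 CPM in Ibsp-high cells, 0, 0 and 0.194 CPM in Otos-high cells, 0 in all 4 C1qb-high cells, and 0, 0 and 22.97 CPM in remaining cells. It was above background in 10 of 12 Ibsp-high cells (51.6% to 97.9%) and in 1 of the 34 others, cell 20. The next highest cell outside the class, cell 22, had 1.71 CPM. Cells 10 and 11 were the Ibsp-high cells at 0, so all overlap with the other classes came from cells 10, 11 and 20. The mean log2(CPM + 1) was 4.72 ± 2.39 in Ibsp-high cells and 0.35 ± 1.04 in remaining cells, a difference of 4.37. Exons of Phospho1 overlap those of Abi3 on the other strand and of Zfp652 on the same strand in GENCODE M21. Strand cannot tell apart reads from the stretch shared with Zfp652. For the stretch shared with Abi3, the use of strand in counting is not given, so these reads cannot be told apart here either.

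Smpd3 and Sgms2 act on sphingomyelin, a membrane lipid with a phosphocholine head. Smpd3 (chr8:106252548-106337965, minus strand) encodes a neutral sphingomyelinase that cuts off this head, the substrate of the Phospho1 enzyme, and its loss in mice leaves bone and dentin poorly mineralized. Sgms2 encodes a sphingomyelin synthase that makes the lipid. Smpd3 had 4.86, 2129 and 5890.0 CPM in Ibsp-high cells, 0.551, 2.26 and 411 CPM in Otos-high cells, and 1.02, 4.69 and 979.5 CPM in remaining cells. Its 4 C1qb-high values lay between 1.16 and 2.16 CPM. The classes overlap, through cell 11 at the low end of the Ibsp-high cells and cell 20 at the high end of the others. It was above background in 11 of 12 Ibsp-high cells and also in 2 of 9 Otos-high cells and 8 of 21 remaining cells. Outside the Ibsp-high class its highest cells were cell 20 at 979.5 CPM and the Otos-high cell 26 at 411 CPM. The mean log2(CPM + 1) was 10.41 ± 2.69 in Ibsp-high cells and 3.79 ± 2.77 in remaining cells, a difference of 6.63. Exons of Smpd3 overlap those of Prmt7 on the other strand.

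Sgms2 (chr3:131318985-131491443, minus strand) had 0.734, 862 and 3237 CPM in Ibsp-high cells, 0.309, 0.698 and 1.08 CPM in Otos-high cells, 0.606 to 1.16 CPM in the 4 C1qb-high cells, and 0.171, 0.686 and 1112 CPM in remaining cells. It was above background in 11 of 12 Ibsp-high cells and in cell 20 alone among the 34 others, where the next value was 1.53 CPM. The Ibsp-high cell without it was cell 10, so all overlap with the other classes came from cells 10 and 20. The mean log2(CPM + 1) was 8.97 ± 2.78 in Ibsp-high cells and 1.22 ± 2.06 in remaining cells, a difference of 7.75.

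**Figure D2:**
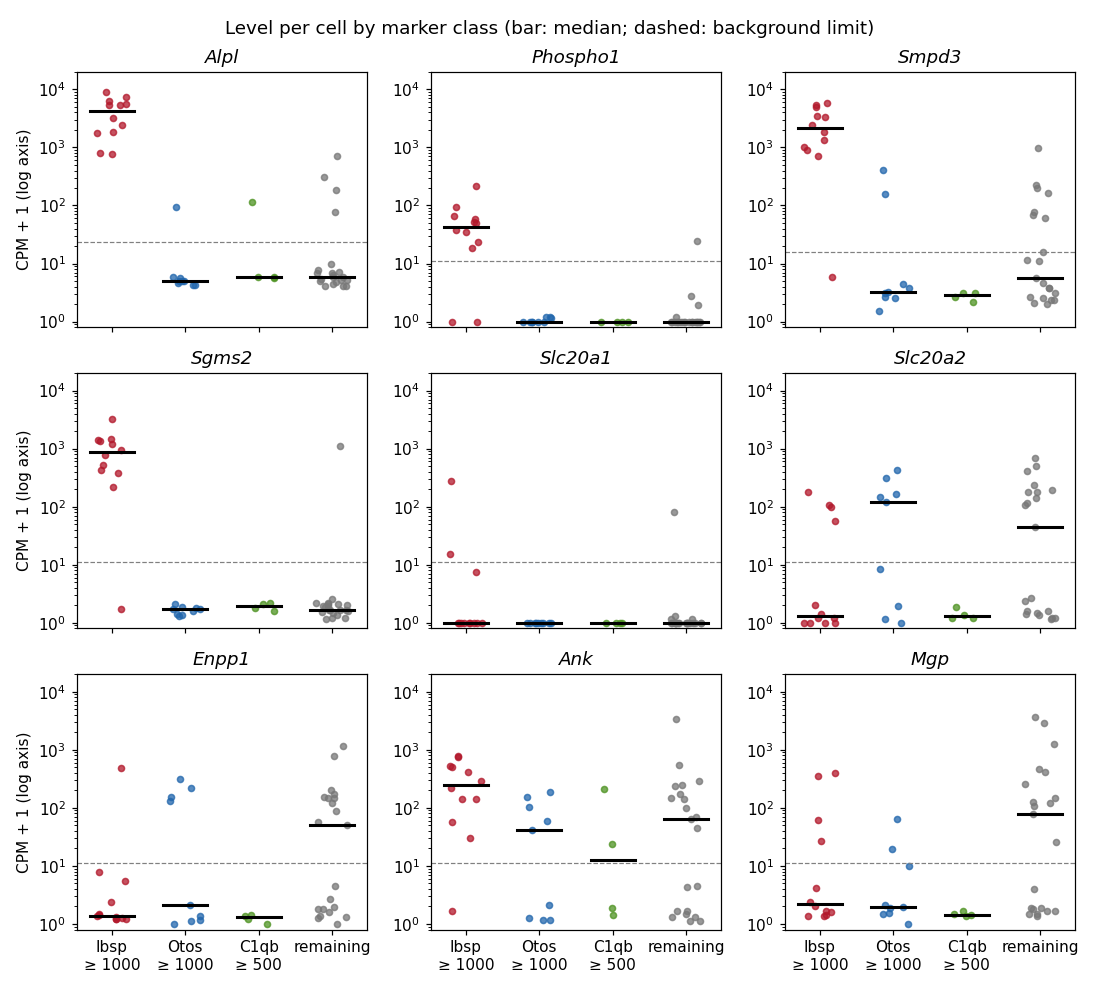
Level of each of the 9 members in each cell by class, on a log axis of CPM + 1; each point is 1 cell and each bar the median of its class. For Alpl the 12 Ibsp-high points, at 770.4 CPM or more, lie above all others, which reach 716 CPM. The Enpp1 and Mgp points of the remaining cells reach 1170 and 3669 CPM.

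Enpp1 (chr10:24637914-24712159, minus strand) encodes the ectoenzyme that makes pyrophosphate from ATP outside the cell, and so opposes alkaline phosphatase. It had 0.195, 0.397 and 487 CPM in Ibsp-high cells, 0, 1.08 and 316 CPM in Otos-high cells, and 0, 49.4 and 1170 CPM in remaining cells. C1qb-high cells had at most 0.432 CPM. Among Ibsp-high cells, cell 11 alone was above background (1 of 12, 0.211% to 38.5%), and the next highest, cell 3, had 6.78 CPM. The gene was above background in 4 of 9 Otos-high cells (13.7% to 78.8%) and 11 of 21 remaining cells (29.8% to 74.3%). The classes overlap, since each held cells without it. The mean log2(CPM + 1) was 1.56 ± 2.49 in Ibsp-high cells and 4.27 ± 3.54 in remaining cells, a difference of -2.71 with a pooled SD of 3.21. This difference is within the spread between cells, and Enpp1 reached 1 CPM in too few remaining cells to be counted as lower; without that filter it was.

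Ank (chr15:27466677-27594909, plus strand) encodes a membrane protein through which ATP and pyrophosphate leave the cell, and its loss in mice causes mineral to form in joints. It had 0.697, 251 and 775 CPM in Ibsp-high cells, 0.174, 39.8 and 187 CPM in Otos-high cells, and 0.129, 63.0 and 3441 CPM in remaining cells. The 4 C1qb-high cells had 213, 22.5, 0.404 and 0.864 CPM. Unlike Enpp1, it was the commonest member over all cells, above background in 30 of 46. By class this was 11 of 12 Ibsp-high cells (61.5% to 99.8%), 5 of 9 Otos-high cells, 2 of 4 C1qb-high cells and 12 of 21 remaining cells (34.02% to 78.2%). The difference of mean log2(CPM + 1) was 2.62 for Ibsp-high minus remaining cells, smaller than the pooled SD of 3.31, and 3.45 for Ibsp-high minus Otos-high cells, with a pooled SD of 2.87. With a pseudocount of 10 or with medians the first of these was 1.74 or 1.96, and Ank was no longer counted as higher than in remaining cells. The highest cell of all was a remaining cell, cell 20, so the classes overlap.

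Mgp (chr6:136872435-136875823, minus strand) encodes matrix Gla protein, a vitamin K-dependent inhibitor of calcification in cartilage and arteries. It had 0.389, 1.21 and 392 CPM in Ibsp-high cells, 0, 0.926 and 62.8 CPM in Otos-high cells, and 0.361, 78.8 and 3669 CPM in remaining cells. C1qb-high cells had 0.387 to 0.648 CPM. Each class held cells without it, so the classes overlap. Mgp was above background in 4 of 12 Ibsp-high cells, 2 of 9 Otos-high cells, 0 of 4 C1qb-high cells and 12 of 21 remaining cells (34.02% to 78.2%). The 4 Ibsp-high cells were cell 10 at 392 CPM, cell 1 at 357 CPM, cell 8 at 61.9 CPM and cell 7 at 25.5 CPM. Among remaining cells, cells 38, 41 and 20 stood out with 3669, 2879 and 1277 CPM. The difference of mean log2(CPM + 1) was -2.12 for Ibsp-high minus remaining cells, with a pooled SD of 3.76, and -3.07 for Otos-high minus remaining cells, with a pooled SD of 3.59. Neither exceeded the spread between cells.

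Slc20a1 (chr2:129198773-129211615, plus strand) and Slc20a2 (chr8:22476700-22569616, plus strand) encode sodium-coupled phosphate importers of the cell membrane, and they were found in different numbers of cells. Slc20a1 was at 0 in 39 of 46 cells. It was above background in 3 cells: the Ibsp-high cells 11 and 1, at 272 and 14.5 CPM, and the remaining cell 40, at 79.6 CPM. It was at 0 in all 9 Otos-high cells and all 4 C1qb-high cells. Slc20a2 had 0, 0.295 and 179 CPM in Ibsp-high cells, 0, 122 and 431 CPM in Otos-high cells, and 0.171, 44.1 and 696 CPM in remaining cells. It was above background in 4 of 12 Ibsp-high cells, 5 of 9 Otos-high cells, 0 of 4 C1qb-high cells and 11 of 21 remaining cells. Each class held cells without it, so the classes overlap. The difference of mean log2(CPM + 1) was -1.90 for Ibsp-high minus remaining cells (pooled SD 3.51) and -2.37 for Ibsp-high minus Otos-high cells (pooled SD 3.39), within the spread between cells in both. Without Otos-high cell 25, 29 or 31, which had 0.154, 0 and 0.918 CPM, the second became -2.94, -2.96 or -2.85 and was counted as lower. Exons of both importers overlap genes on the other strand, 9830144P21Rik and Gm4430 for Slc20a1 and Smim19 for Slc20a2.

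Levels can be set between genes only per length, here as median CPM per kilobase of the longest GENCODE M21 basic transcript. In Ibsp-high cells the order was Alpl at 1681, Smpd3 at 413, Sgms2 at 149, Ank at 71.7 and Phospho1 at 22.2 CPM per kilobase, with Mgp at 1.96 and Slc20a2, Enpp1 and Slc20a1 below 0.1. In Otos-high cells Slc20a2 led with 34.1, ahead of Ank with 11.4, and no other member passed 1.59. In remaining cells Mgp led with 128, ahead of Ank with 18.004, Slc20a2 with 12.4 and Enpp1 with 7.29. Neighbours in each of these orders overlap over cells, as the ranges above show.

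The same 5 members were higher in Ibsp-high than in Otos-high cells, and 0 were lower, beside 1.68% of all genes higher and 1.79% lower (3.33% and 3.56% of genes that reached 10 CPM in any cell). This comparison shares its Ibsp-high cells with the one above. The differences were 8.86 for Alpl, 4.64 for Phospho1, 7.43 for Smpd3, 8.27 for Sgms2 and 3.45 for Ank. Between Otos-high and remaining cells no member passed the rule: 0 of 9 were higher and 0 lower, beside 1.26% and 0.469% of all genes (2.51% and 0.931% of those at 10 CPM in any cell), and the differences ran from -3.07 (Mgp) to 0.47 (Slc20a2). Without the filter Mgp was counted as lower there. In C1qb-high against remaining cells, 0 members were higher and 1, Smpd3, was lower by the rule, beside 4.56% and 1.96% of all genes (9.05% and 3.88% of those at 10 CPM in any cell). Its difference of -2.34 was below the pooled SD of 2.58, and the count became 0 with a pseudocount of 10, a filter at 10 CPM or medians. Mgp, Enpp1 and Slc20a2 differed by -4.48, -3.95 and -3.80, but reached 1 CPM in too few remaining cells to be counted; without that filter the count was 4.

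**Figure D3:**
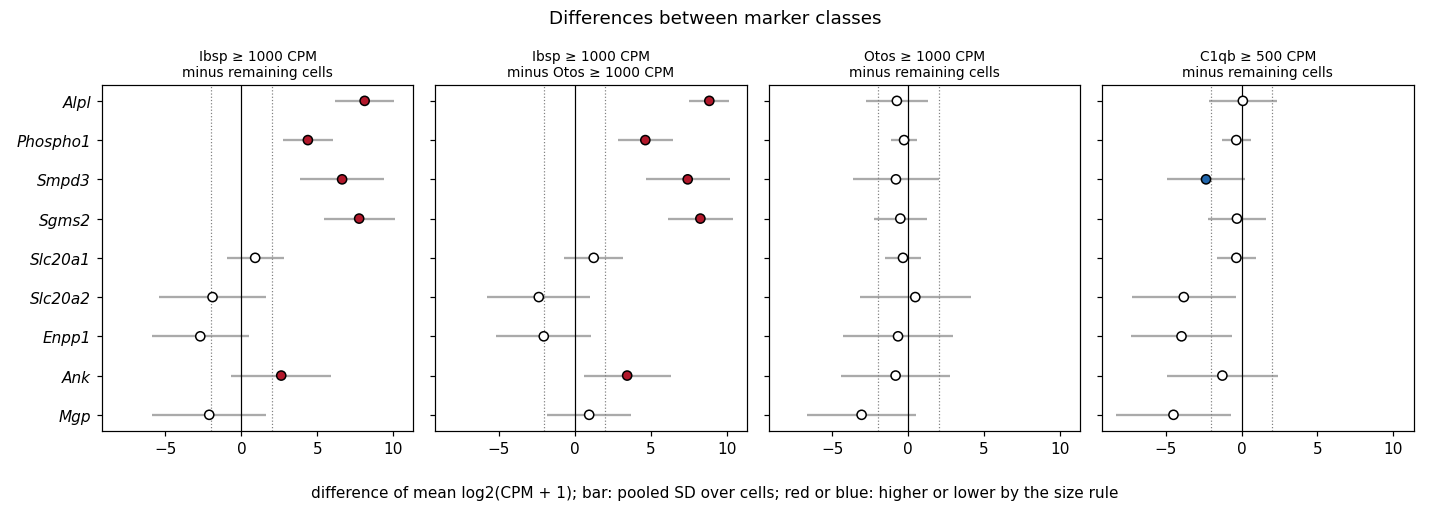
Difference of mean log2(CPM + 1) for each member in the 4 comparisons of classes, with bars of 1 pooled SD over cells to each side; red points are higher and blue points lower by the rule of size, and open points pass in neither direction. Alpl, Phospho1, Smpd3 and Sgms2 lie at 4.37 to 8.11 for Ibsp-high minus remaining cells, while Enpp1 and Mgp lie at -2.71 and -2.12 with bars that cross 0.

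Members were combined within cells. All 4 promoters of mineral (Alpl, Phospho1, Smpd3, Sgms2) were above background together in 10 of 12 Ibsp-high cells and in 0 of the 34 others. At least 1 of the 4 was present in 12 of 12 Ibsp-high cells, 3 of 9 Otos-high cells, 1 of 4 C1qb-high cells and 11 of 21 remaining cells, so single promoters were not confined to the class. At least 1 inhibitor (Enpp1, Ank or Mgp) was present in 12 of 12, 9 of 9, 2 of 4 and 17 of 21 cells of the same classes. At least 2 inhibitors together were present in 4 of 12 Ibsp-high cells, 2 of 9 Otos-high cells, 0 of 4 C1qb-high cells and 14 of 21 remaining cells. All 3 were present in 4 remaining cells, numbers 17, 20, 21 and 22, and in no other cell.

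Alpl and Enpp1, the enzymes that destroy and make pyrophosphate, were above background together in few cells. Of 46 cells, 2 had both (cells 11 and 22), 16 had Alpl without Enpp1, 14 had Enpp1 without Alpl and 14 had neither. The split follows the classes in part, since 11 of the 16 were Ibsp-high cells and 10 of the 14 with Enpp1 only were remaining cells. Enpp1 and Ank, which both raise pyrophosphate outside the cell, were above background together in 8 of 46 cells. Cells 45 and 46, both C1qb-high, had no member above background.

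**Figure D4:**
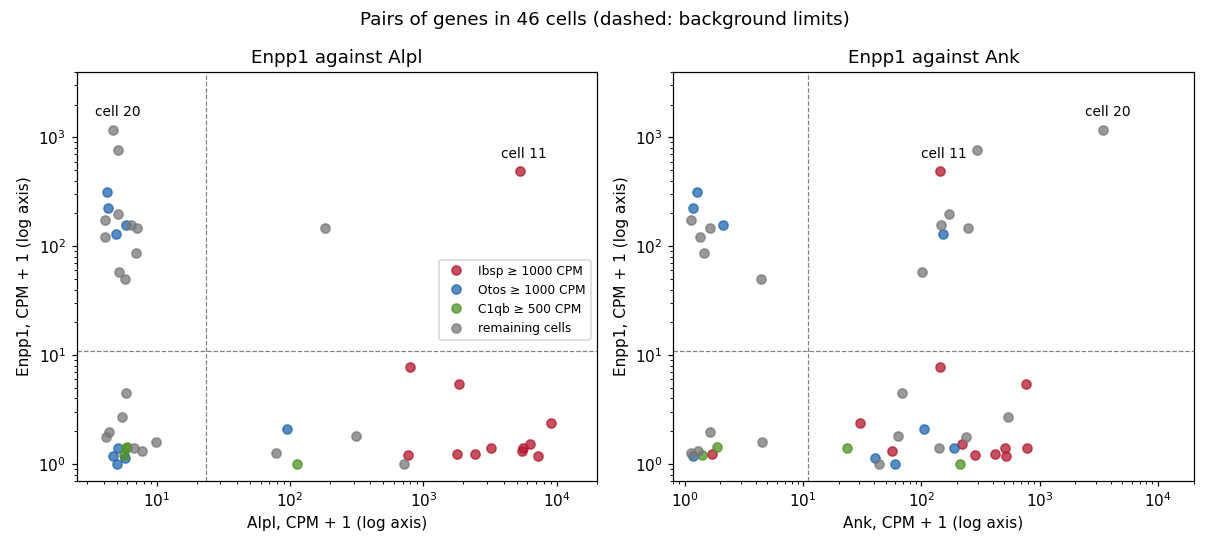
Enpp1 (CPM + 1, log axis) against Alpl on the left and against Ank on the right (CPM + 1, log axis); each point is 1 cell, coloured by class, and dashed lines are the background limits. The upper right field, above both limits, holds 2 of 46 cells for Alpl (cells 11 and 22) and 8 of 46 for Ank, with cell 20 highest for both Enpp1 and Ank.

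**Figure D5:**
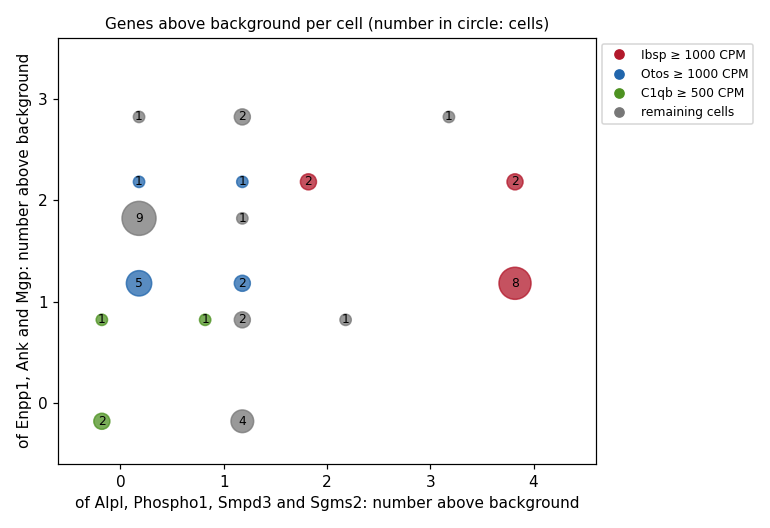
Number of mineral promoters above background (of Alpl, Phospho1, Smpd3 and Sgms2, horizontal) against number of inhibitors above background (of Enpp1, Ank and Mgp, vertical); each circle is a set of cells of 1 class with that combination, its printed number gives the cells, and circles are shifted slightly so that classes stay apart. The circles at 4 promoters hold 10 Ibsp-high cells and no other, while 14 of 21 remaining cells sit at 2 or 3 inhibitors.

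Some cells stood apart from their class. Cell 10 was an Ibsp-high cell without Phospho1 or Sgms2, with Alpl at 1783 CPM, Smpd3 at 724 CPM and Mgp at 392 CPM, the highest Mgp of the class. Cell 11 was an Ibsp-high cell without Phospho1 and with Smpd3 at 4.86 CPM. It had Alpl at 5291 CPM and was the only Ibsp-high cell with Enpp1 above background, at 487 CPM. It also had the highest Slc20a1 of all cells, at 272 CPM. Spp1, the gene of osteopontin, an inhibitor of crystal growth, took 119788 CPM in cell 11, against 19166 CPM in the next highest of the 46 cells.

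Cell 20 was a remaining cell with Ibsp at 27.7 CPM and Alpl at 3.72 CPM, both at background. It nevertheless had Phospho1 at 22.97 CPM, Smpd3 at 979.5 CPM and Sgms2 at 1112 CPM, together with the highest Enpp1 (1170 CPM) and Ank (3441 CPM) of all cells and Mgp at 1277 CPM. Of the osteoblast list, it had the transcription factor genes Sp7 at 704 CPM, Runx2 at 292 CPM and Dlx5 at 47.7 CPM. Dlx5 was higher in every Ibsp-high cell, at 158 to 1459 CPM. No remaining cell had more than 5 of the 8 osteoblast markers other than Ibsp. Dmp1, a matrix gene of osteocytes, the cells embedded in bone, was at 21980 CPM. Dmp1 was above background in 7 of 12 Ibsp-high, 4 of 9 Otos-high and 13 of 21 remaining cells. Its presence therefore does not mark a bone cell here. Of the fibrocyte list, Coch was at 6519 CPM, Car3 at 32.8 CPM and Otos at 57.6 CPM. Coch was at 510 to 34506 CPM in Ibsp-high cells, so its level in cell 20 does not mark a fibrocyte. Other markers of these lists are not given for cell 20. Cell 22 was the other cell with very high Dmp1, at 23208 CPM, and held all 3 inhibitors and Alpl at 181 CPM, but Sgms2 at 0.342 CPM. Whether such cells hold RNA of more than 1 cell was not tested.

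Within the 12 Ibsp-high cells Phospho1 followed Sgms2 and Smpd3, and Alpl followed none of them as closely. Phospho1 and Sgms2 had a Pearson r of 0.80 and a Spearman rho of 0.82 on log2(CPM + 1), and Phospho1 and Smpd3 had 0.79 and 0.76. Without cells 10 and 11, the cells farthest from the Phospho1 median, r was 0.61 and 0.64 over 10 cells. Smpd3 and Sgms2 had an r of 0.33, while Alpl had 0.03 with Phospho1, -0.27 with Smpd3 and 0.21 with Sgms2. Without cells 1 and 3, the farthest from the Alpl median, these were 0.27, -0.13 and 0.46. These are descriptions over cells that share their preparation and differ in depth. Read depth itself had an r of -0.32 with Alpl, 0.06 with Phospho1, 0.07 with Smpd3, 0.16 with Sgms2 and 0.50 with Ank. In the 21 remaining cells Ank and Mgp had an r of 0.49 and a rho of 0.54.

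Alpl was also set against Dio2 within the class, a relation chosen after the values were seen. Its r with Dio2 was -0.67 over the 12 cells and -0.62 without cells 1 and 3. The Ibsp-high cells 5, 2, 6 and 4 had the highest Alpl, at 9149, 7295, 6299 and 5548 CPM. Dio2 was at 0.694, 0.195, 0.342 and 0.404 CPM in these 4 cells, the lowest of the class. Cells 8 and 11 came next, with Alpl at 5476 and 5291 CPM, but had Dio2 at 186 and 160 CPM. High Alpl was therefore not confined to cells without Dio2. Mgp was above background in 0 of the 4 cells with low Dio2 and in 4 of the 8 other Ibsp-high cells.

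The genes most like each member were ranked by Pearson r of log2(CPM + 1) over the 46 cells among 9475 genes at 10 CPM or more in at least 5 cells; differences between classes enter these values. Alpl was most like Ibsp (0.88) and the osteocalcin genes Bglap2 and Bglap3 (0.88 each), near-identical copies whose reads may be split. Phospho1 was most like Sgms2 and the lysophosphatidic acid receptor gene Lpar3 (0.94 each) and Ifitm5 (0.91), a gene of mineralizing osteoblasts. Sgms2 was most like Phospho1 (0.94) and Ifitm5 (0.91). Smpd3 was most like Phospho1 (0.83), Sgms2 and Lpar3 (0.79 each).

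Among the inhibitors, Enpp1 was most like Fmod (0.63), the gene of the collagen-binding fibromodulin, Sox9 (0.62), the transcription factor gene of cartilage, and Cabin1 (0.61). Mgp was most like the elastic fibre genes Fbln5 (0.68) and Mfap4 (0.55) and S100a6 (0.59). Ank was most like Cd200 (0.57), Rgs3 and Numa1 (0.54 each). Slc20a1 was most like Golga1 (0.63), Mmp16 (0.62) and Ttc39b (0.60), a likeness over 3 cells above background. For Slc20a2 no gene passed Slc30a7 (0.50), ahead of Upf1 and Fam210a (0.48 each).

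Of 33 further genes of the pathway, 26 reached 10 CPM in any cell. Of the 33, 3 were higher in Ibsp-high than in remaining cells and 0 lower, beside 1.28% and 0.639% of all genes (2.53% and 1.27% of those at 10 CPM in any cell). The median difference over the 26 was 0.51, beside 0 over the genes at 10 CPM in any cell. Fam20c, the gene of the kinase of secreted mineral proteins, had a median of 307 CPM in Ibsp-high cells and 1.14 CPM in remaining cells, a difference of 4.17 (11 of 12 and 8 of 21 cells above background). Phex, a protease gene whose loss causes phosphate wasting, had medians of 198 CPM in Ibsp-high and 9.92 CPM in remaining cells, a difference of 2.41. Anxa2, an annexin gene of matrix vesicles, had medians of 323 CPM in Ibsp-high and 181 CPM in remaining cells, a difference of 2.60. Its 2 medians lie less than 2 log2 units apart. The SDs of log2(CPM + 1) in Ibsp-high and remaining cells were 2.31 and 4.06 for Fam20c, 3.81 and 3.72 for Phex, and 1.24 and 4.02 for Anxa2. The Phex difference is smaller than either of its SDs, and the Anxa2 difference is smaller than the SD of remaining cells. The count of 3 became 1 with a pseudocount of 10. Against Otos-high cells 6 of the 33 were higher and 1 lower, beside 1.68% and 1.79% of all genes (3.33% and 3.56% of those at 10 CPM in any cell).

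Other genes of the list did not pass the rule. Nt5e, which makes adenosine from the AMP that Enpp1 leaves, was above background in 0 of 12 Ibsp-high cells and 10 of 21 remaining cells, a difference of -3.38. Galnt3, which protects the phosphate hormone Fgf23 from cleavage, was above background in 6 of 12 Ibsp-high cells and 1 of 21 remaining cells, a difference of 3.07. Nt5e and Galnt3 passed the size limit of 2 but reached 1 CPM in too few cells of the higher class. Ggcx, the vitamin K-dependent carboxylase that Mgp protein needs, was above background in 4 of 12 Ibsp-high cells and 13 of 21 remaining cells. Its difference of -1.95 fell short of the size limit. Among transporters and secreted factors of phosphate handling, Abcc6, Slc34a1, Slc34a2, Slc34a3, Fgf23 and Ahsg had no read in any of the 46 cells.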

How the data were processed

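Single cells from mouse cochlea were sequenced after full-length cDNA synthesis (SMART-Seq v4) and ThruPLEX library construction, per the labels' protocols. Per the submitters' processing notes, bcl2fastq 2, STAR 2.7.3a and the builds GRCm38 and mm10 were used; for the counting program, annotation and strand setting the sources used here give no entry. The deposited values are CPM, as named by the authors, for 29871 genes in 46 cells. All 100% of the 373859 values above 0 were whole reads within 0.01 read, with 2522853 to 10350249 reads per cell, and listed genes summed to 86.4% to 93.5% of 1000000. No count test could be run on these reads, because 46 cells of 1 labelled group with no animal named are 1 sample. Reads carry no molecular identifiers. Intervals are over numbers of cells, and with no animal named they cover counting error only.

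Differences are of mean log2(CPM + 1), a scale with a pseudocount of 1 that understates low genes. The rule of size was applied to all genes. Its trial on simulated data shifted genes by the same factor in every Ibsp-high cell. Members often varied from cell to cell within a class, so that trial does not show how the rule acts on them. The text names all 9 members, the 3 genes most like each (1 result is not reported here), and pathway genes past the rule of size in the Ibsp-high comparison; the cells singled out, Spp1 and the pathway genes short of the rule were named after their values were seen. Left out of that ranking were symbols turned into dates, Gm, Rik and LOC genes, and genes of mitochondria or ribosomal proteins. Members, lists and classes were chosen with earlier results of these data known. Promoters came from RefSeq (GRCm38.p6), transcripts and overlaps from GENCODE M21. Python 3.11.15, numpy 2.4.6, pandas 2.3.3, scipy 1.17.1 and matplotlib 3.10.9 were used. Alternatives changed the pseudocount, filter, class limits, summary, size limit, scaling, background limit and depth, and left out each cell in turn.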

Additional observations from a re-analysis of the deposited data

How the results depend on the processing

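Of the 5 members higher in Ibsp-high than in remaining cells, Alpl, Phospho1, Smpd3 and Sgms2 were counted so in all 42 alternatives, and Ank in 40, with 4 members left under a pseudocount of 10 or medians. Against Otos-high cells all 5 were counted in all 30 alternatives. For Ibsp-high minus remaining cells Alpl ranged from 6.98 to 9.44, Smpd3 from 5.55 to 8.53, Sgms2 from 5.47 to 8.99, Phospho1 from 2.08 (pseudocount 10) to 6.65 (pseudocount 0.1) and Ank from 1.74 to 3.21. The count of 0 lower members became 2 against remaining cells (Enpp1, Mgp) and 2 against Otos-high cells (Enpp1, Slc20a2) with no filter; Slc20a2 was also counted as lower than in Otos-high cells with class limits 3 times higher, with CPM of the listed genes, and without cell 25, 29 or 31. The pathway count of 3 (3 higher, 0 lower) became 1 (higher) with a pseudocount of 10, and 5 (4 higher, 1 lower) with no filter or with a size limit of 1. With medians it was again 3, but as 2 higher and 1 lower. For Otos-high against remaining cells the count of 0 became 1 with no filter. For C1qb-high against remaining cells the count of 1 became 0 with a pseudocount of 10, a filter at 10 CPM or medians, and 4 with no filter. Over all members and cells, 35.99% of 414 values were above background; this was 55.3% with a limit of 1 CPM, 26.6% with a limit of 100 CPM and 76.8% for any read after thinning to 2522853 reads per cell. The low floor of reads in most cells enters the last of these. The cause of the other changes was not tested. No paired analysis was possible because the labels give 1 group with no numbered pairs. With 1 sample, depth and replication set no error on the differences beyond the spread over cells.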
